A study of Mus musculus with 6 samples.

Results

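The WNT pathway genes described here are 41 genes for ligands, receptors and modulators, taken by symbol from a fixed list and measured by 77 of the 45281 probes, which cover 28893 genes, on an Illumina mouse bead chip. Of the 41 genes, 21 had a probe above background (detection p-value under 0.05) on at least 3 of the 6 arrays and were tested, among 11941 genes tested in all. The samples were luminal uterine epithelium, the cell layer that lines the uterine cavity, isolated at 3.5 days post coitum from mice of a hybrid C57BL/6J and 129S5/SvEvBrd background. There were 3 Control arrays (A, B and C) and 3 arrays from a conditional knockout of Alk3 (D, E and F, here CKO), all on 1 chip.

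Alk3, whose current symbol is Bmpr1a, is a cell-surface receptor for BMP ligands. CKO females were Alk3flox/flox Pgrcre/+: loxP sites flank exon 2, and Cre is made from the progesterone receptor locus, so it acts wherever that receptor is expressed and not in epithelium alone. The labels call the other group Control without giving its alleles, and they give no age. The labels name isolated epithelium, but the protocol tells only of uterine tissue that was frozen and homogenised. Neither says whether different arrays hold different mice. The p-values therefore measure only how these samples spread, which may be technical. The array letters are positions on the chip, with Control in the first 3 and CKO in the last 3, and an effect of position cannot be told apart from that of the group.

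WNT proteins are lipid-modified secreted ligands that bind Frizzled receptors together with a co-receptor. With the co-receptors Lrp5 and Lrp6 they stabilise beta-catenin, which enters the nucleus and works with TCF and LEF factors. With Ror receptors they act on cell shape and movement instead. In the mouse uterus Wnt7a is made by the luminal epithelium and is needed for the female tract to form glands, while Wnt4 and Wnt5a are best known from the stroma. The comparison asked which genes differ in this epithelium when Alk3 is deleted.

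The levels below are normalised log2 signals of the probe with the highest mean among the gene's probes above background. A level says nothing about another gene's level, since probes differ in brightness. Where a dimmer probe of a gene is also given, its SE is from a fit of all probes, those below background included. Such an SE should not be compared with the SE of a gene. The median raw signal ran from 79.7 to 87.6 over the arrays and 16620 to 17536 probes per array were above background, and the number of arrays limits the precision. The luminal epithelium markers Cdh1, Cldn4, Krt8, Krt18, Krt19, Lpar3 and Muc1 were above background on all 6 arrays, while Epcam and Calb1 were below background on every array. Array E stood apart: its mean correlation with the other arrays over all genes tested was 0.936, against 0.953 to 0.970 for the rest. Krt19 (8.77), Lpar3 (10.09), Cdh1 (11.04) and Krt8 (13.02) were lowest on E, with Krt19 between 10.48 and 11.78 on the other arrays. Krt18 (12.14) and Cldn4 (12.96) on E lay inside the range of the others, and Muc1 (10.58) was highest on E. Bmpr1a, the targeted gene, was at 9.26, 9.35 and 8.97 in Control A, B and C and at 8.86, 8.25 and 8.67 in CKO D, E and F, a difference that did not pass (adjusted p 0.976, limma), and whether its probe lies in the deleted exon is not known here.

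Promoter sequence was at hand from RefSeq (GRCm38.p6) for 25 of the 41 genes. The 250 bases before 1 of each gene's starts are printed for 3 genes that were lowest on array E and held a match to the letters searched, Wnt11, Fzd10 and Tcf7l2, and for Axin2, the usual readout of beta-catenin signalling. Each is written 5′ to 3′ on the gene's own strand, and capitals mark matches to the TCF and LEF core CTTTGAT (or its reverse complement ATCAAAG) and to GGCGCC, a palindrome that SMAD proteins of the BMP pathway can bind.
Wnt11, chr7:98834862-98835111, plus strand: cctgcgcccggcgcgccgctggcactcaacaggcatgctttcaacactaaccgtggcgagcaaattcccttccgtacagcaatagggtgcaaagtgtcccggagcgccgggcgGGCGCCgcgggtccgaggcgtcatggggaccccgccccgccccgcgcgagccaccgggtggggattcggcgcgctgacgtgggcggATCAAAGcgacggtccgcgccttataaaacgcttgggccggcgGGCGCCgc
Fzd10, chr5:128600856-128601105, plus strand: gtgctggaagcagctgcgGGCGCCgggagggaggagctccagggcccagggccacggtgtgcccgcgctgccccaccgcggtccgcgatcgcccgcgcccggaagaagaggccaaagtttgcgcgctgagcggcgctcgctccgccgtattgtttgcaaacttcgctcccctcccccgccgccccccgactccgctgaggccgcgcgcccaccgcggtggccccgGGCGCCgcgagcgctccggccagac
Tcf7l2, chr19:55741560-55741809, plus strand: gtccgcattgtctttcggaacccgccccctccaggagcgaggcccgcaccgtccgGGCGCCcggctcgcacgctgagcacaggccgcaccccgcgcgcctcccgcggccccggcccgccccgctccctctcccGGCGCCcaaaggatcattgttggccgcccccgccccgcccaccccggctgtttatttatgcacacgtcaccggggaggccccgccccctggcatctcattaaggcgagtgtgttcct
Axin2, chr11:108920099-108920348, plus strand: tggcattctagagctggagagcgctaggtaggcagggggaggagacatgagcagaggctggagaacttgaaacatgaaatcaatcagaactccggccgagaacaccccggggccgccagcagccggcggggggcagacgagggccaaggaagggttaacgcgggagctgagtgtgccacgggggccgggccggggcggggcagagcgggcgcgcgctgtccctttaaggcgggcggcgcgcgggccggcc

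Wnt11 held the TCF and LEF core once, 51 bases before its start, and GGCGCC at 137 and 8 bases before it. Fzd10 held GGCGCC at 232 and 25 bases before its start, and Tcf7l2 at 195 and 117. The Axin2 window held neither set of letters. Over all 32851 windows of the same length in the table, 3.21% held the TCF and LEF core and 9.59% held GGCGCC. Over the 33 windows of the 25 WNT genes (some have several starts), the shares were 6.06% and 30.3%, and these windows were richer in G and C (median 64.4%, against 52.4% over all). A match is a description of letters, not a binding site.

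Of the 41 WNT genes 21 were tested, where 11941 of the 28893 genes on the chip were. The 20 genes that were not tested comprised 10 with every probe below background on every array and 10 with a probe above background on 1 or 2 arrays. The first set held Wnt6, Fzd1, Fzd7, the receptor kinase Ror1, the R-spondin receptor Lgr4, the secreted inhibitors Sfrp4, Dkk1 and Dkk2, the nuclear factor Lef1 and the ubiquitin ligase Znrf3, which removes Frizzled receptors from the cell surface. Lef1 was covered by 4 probes and Wnt6 by 3, and their levels stayed between 4.32 and 4.76 and between 4.34 and 5.06. Dkk1, which blocks the Lrp co-receptors, was at 4.59, 4.77 and 4.41 in Control A, B and C and at 4.42, 4.30 and 4.40 in CKO D, E and F. The brightest Lef1 probe was at 4.60, 4.48 and 4.76 in Control and at 4.52, 4.58 and 4.59 in CKO. Sfrp4 was at 4.55, 4.43 and 4.34 in Control and at 4.38, 4.48 and 4.39 in CKO. A probe below background gives only an upper bound, so these values do not show that a gene is silent.

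The second set held Wnt4, Wnt5b, Fzd4, Fzd8, Lrp6, Sfrp2, Sfrp5, Dvl2, Tcf7 and Nkd1. The brighter Wnt4 probe was at 4.88, 4.94 and 5.43 in Control A, B and C and at 5.14, 4.69 and 4.88 in CKO D, E and F, and it was above background on C and D alone. Wnt4 was thus not above background in most samples of either group. Wnt5b was above background on B and F, Lrp6 on B and D and Sfrp2 on A and D. By the definition of this set, no probe in it could be above background on all 3 arrays of a group.

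**Figure D1:**
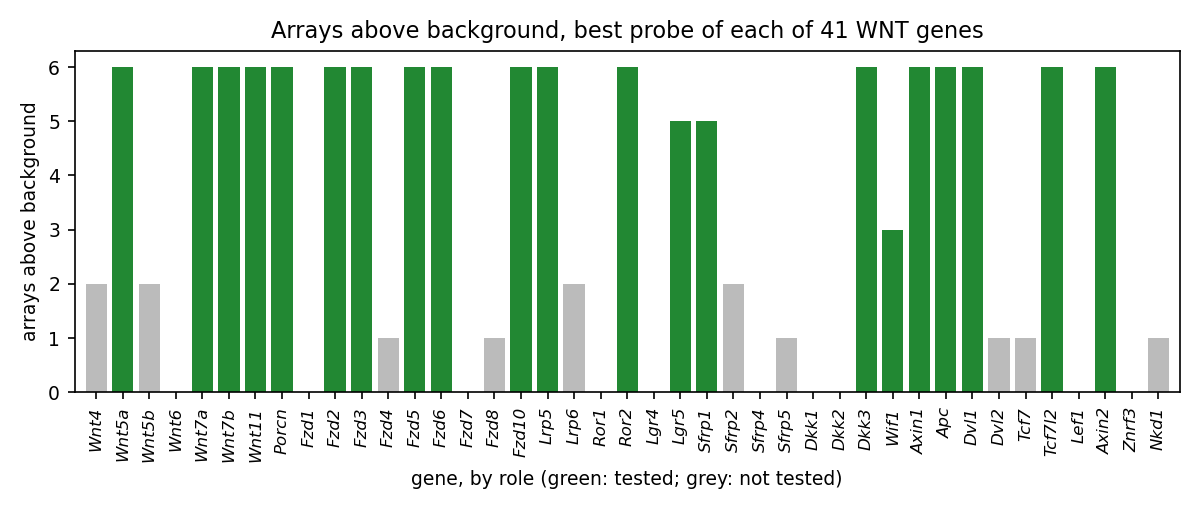
Number of the 6 arrays (vertical axis) on which the best probe of each of the 41 WNT genes (horizontal axis, ordered by role) was above background; green bars are the 21 genes tested and grey bars those not tested. Of the tested genes, 18 reach 6 arrays, Lgr5 and Sfrp1 reach 5 and Wif1 reaches 3, while 10 genes have no bar.

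Over the 21 genes tested, 0 were called higher and 0 lower in CKO by limma at an adjusted p of 0.05, where 0.0167% of all genes tested were called higher and 0% lower. A single member, Wnt5a, had an unadjusted p under 0.05, where 4.71% of all genes did. The difference was above 0 for 13 members and below 0 for 8, and its median was 0.083 against -0.011 over all genes tested. Without array E it was above 0 for 14 of 21 and without C for 7 of 20, with 0 called in each. Wnt5a was also the single member whose groups did not overlap, where 5.64% of all genes lay wholly higher and 5.01% wholly lower in CKO.

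**Figure D2:**
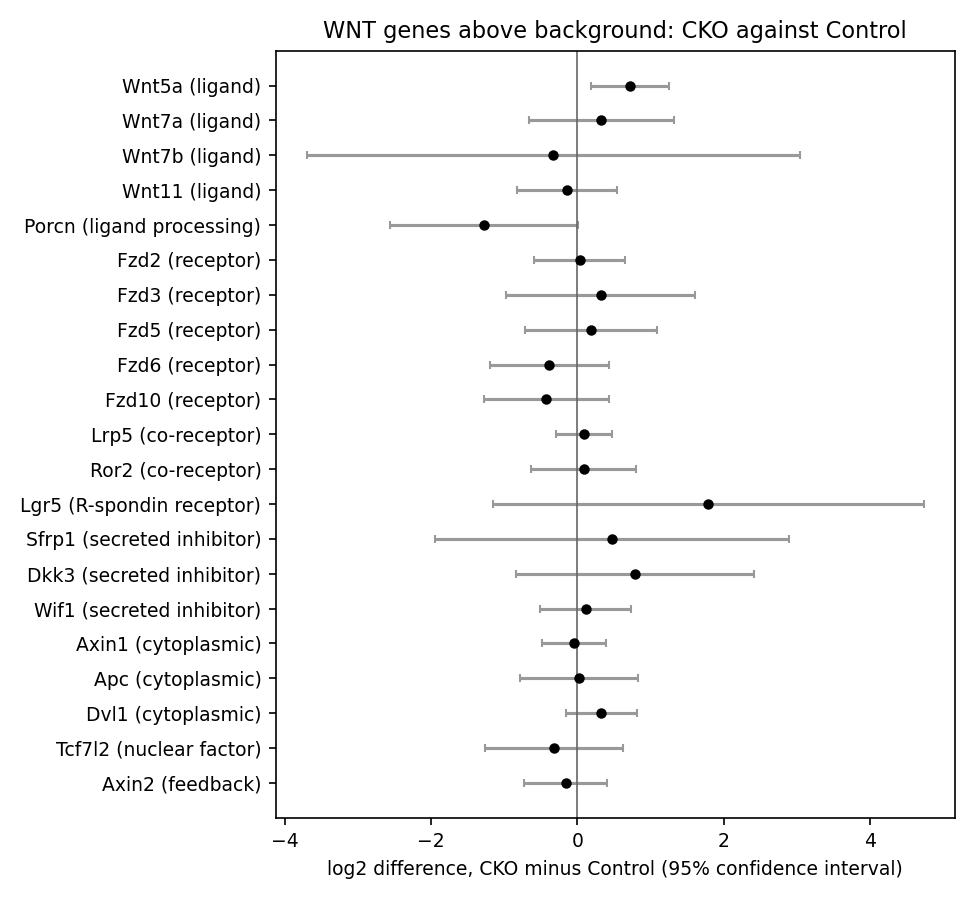
Log2 difference, CKO minus Control (horizontal axis), for each of the 21 WNT genes tested, ordered by role; points are limma estimates and bars their 95% confidence intervals, from 3 arrays a group. The interval of Wnt5a lies above 0 (0.18 to 1.25), the other 20 include 0, and those of Wnt7b, Lgr5 and Sfrp1 are the widest.

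Among the ligands, Wnt5a, which signals mostly through Ror receptors, was at 10.27, 10.95 and 10.59 in Control A, B and C and at 11.28, 11.17 and 11.52 in CKO D, E and F. Every CKO array lay above every Control array. The mean was 10.61 ± 0.34 in Control and 11.32 ± 0.18 in CKO (SD, n = 3). The difference was 0.72 (SE 0.22, 95% confidence interval 0.18 to 1.25), and the adjusted p was 0.976 by limma, so it did not pass. An exact two-sided permutation test gave p = 0.1, and groups of 3 arrays cannot go lower. A dimmer Wnt5a probe, above background on all arrays, was at 7.60, 8.20 and 7.98 in Control and at 8.07, 8.13 and 8.37 in CKO. There the groups overlapped, and the difference was 0.26 (SE 0.17). The last Wnt5a probe was above background on 1 array. By the mean of its probes the Wnt5a difference was 0.49, and without single arrays it ran from 0.55 to 0.89.

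Stroma is a known source of Wnt5a, so its markers are given beside it. Of 11 stroma markers, 7 were tested, with a summed level (linear signal) of 2080 to 2767 on Control arrays and of 6180, 2559 and 996 on CKO arrays D, E and F. Hand2, Hoxa11 and Postn, which mark uterine stroma, were below background on every array. From 66.6% to 86.6% of this sum came from Dcn, a matrix proteoglycan, which differed by -0.15 (SE 0.67). Of the 7 stroma markers tested, 5 had a difference above 0, with a median of 0.51 over the 7, and 0 passed. Col1a1 differed by 1.23 (SE 0.66), Thy1 by 1.08 (SE 0.49) and Vim by 0.84 (SE 0.50), and each was higher on D and E than on every other array. Col3a1 differed by 0.51 (SE 0.41), Col1a2 by 0.26 (SE 0.29) and Lum by -0.27 (SE 0.48). Wnt5a was highest on F, at 11.52, the array where the summed stroma level was lowest. The part of stroma in the level of Wnt5a was not tested. In a bulk sample, fewer cells of a type and less RNA per cell cannot be told apart.

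Wnt7a, the ligand of the uterine epithelium, was at 11.53, 11.32 and 10.11 in Control A, B and C and at 11.20, 11.76 and 10.98 in CKO D, E and F. Control C was the lowest array, and the other 5 lay between 10.98 and 11.76. The difference was 0.33 (SE 0.41, adjusted p 0.977 by limma). It was -0.11 without C, and with array weights it was -0.11 as well.

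Wnt7b, a close relative of Wnt7a, was at 9.86, 8.10 and 7.43 in Control A, B and C and at 6.52, 11.43 and 6.45 in CKO D, E and F. CKO thus held the highest array and the 2 lowest. The group difference was -0.33 (SE 1.41, adjusted p 0.982 by limma), and it was -2.0 without E. With D and F alone, the CKO arrays lay below all 3 Control arrays, and the adjusted p was 0.971. A dimmer Wnt7b probe had the same highest array, at 8.82 on E, and was next highest on A (6.27) and B (5.99). It was below background on C, D and F.

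Wnt11, a ligand known from cell movement in the embryo, was at 7.85, 8.26 and 8.29 in Control A, B and C and at 8.56, 7.64 and 7.79 in CKO D, E and F. The groups overlapped, with a difference of -0.14 (SE 0.29, adjusted p 0.977 by limma). Porcn, the enzyme that attaches the lipid without which WNT ligands are not secreted, was at 11.59, 11.07 and 11.96 in Control and at 11.11, 9.08 and 10.61 in CKO D, E and F. CKO D lay just above Control B, so the groups overlapped by these 2 arrays. The difference was -1.28 (SE 0.54, 95% confidence interval -2.56 to 0.0074), and the adjusted p was 0.976 by limma.

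A dimmer Porcn probe was at 7.98, 7.73 and 8.42 in Control and at 8.07, 5.89 and 7.23 in CKO, with a difference of -0.98 (SE 0.57). Both Porcn probes were lowest on E and highest on C. Without array E the difference of the main Porcn probe was -0.68 (adjusted p 0.971 by limma), and with array weights it was -0.74.

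**Figure D3:**
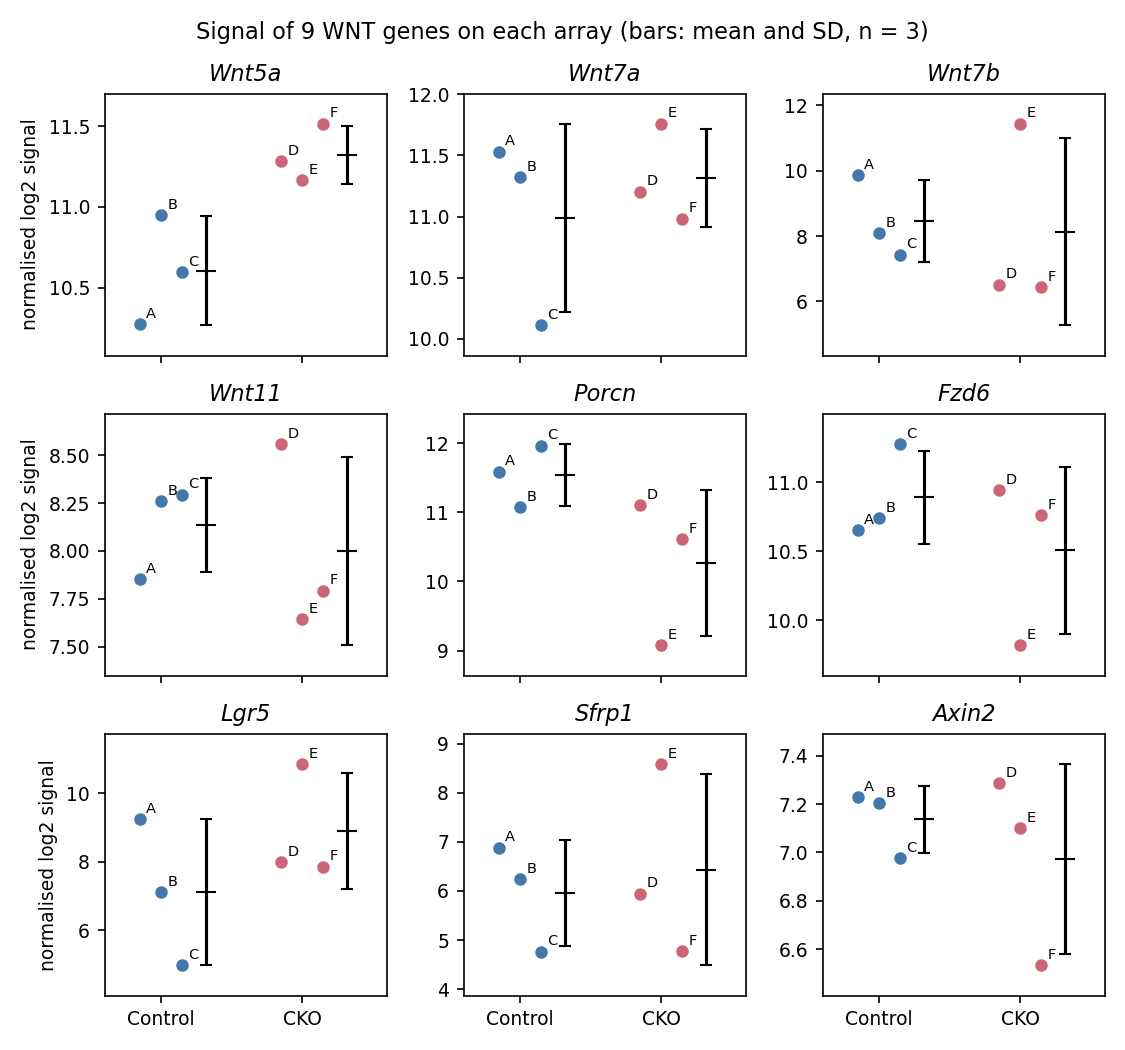
Normalised log2 signal (vertical axes, which differ between panels) of 9 WNT genes on Control arrays A to C (blue) and CKO arrays D to F (red); black marks are the group mean and SD, n = 3. The groups are apart for Wnt5a only, and array E is the highest array for Wnt7a, Wnt7b, Lgr5 and Sfrp1 and the lowest for Wnt11, Porcn and Fzd6.

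Among the receptors, 5 of 9 Frizzled genes were tested and 0 passed. Fzd6, a Frizzled of planar cell polarity, was at 10.65, 10.74 and 11.28 in Control A, B and C and at 10.95, 9.82 and 10.76 in CKO D, E and F. Apart from E, the CKO arrays lay within the Control range. The difference was -0.38 (SE 0.34), and -0.036 without E. A dimmer Fzd6 probe differed by -0.41 (SE 0.47).

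Fzd10 had the same shape: it was at 6.93 on E and between 7.75 and 8.30 on the other 5 arrays, with a difference of -0.42 (SE 0.36) that was -0.059 without E. The dimmer Fzd10 probe lay at 5.78 on E, inside the range of the others, so E was the lowest array for the brighter probe alone. Fzd3 was highest on E (8.10) and next on Control A (7.71), with the other arrays between 6.09 and 6.78. Its difference was 0.32 (SE 0.54), and -0.16 without E. Fzd5 was at 11.77, 11.05 and 10.22 in Control A, B and C and at 11.23, 11.21 and 11.16 in CKO D, E and F. The CKO arrays of Fzd5 thus lay within 0.069 of each other, while Control spanned 1.54. Fzd2 differed by 0.032 (SE 0.26), and by -0.014 with median scaling.

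Of the 4 co-receptors, 2 were tested and 0 passed. Ror2, a receptor kinase for Wnt5a, was at 9.80, 9.93 and 8.98 in Control A, B and C and at 9.87, 9.34 and 9.75 in CKO D, E and F, with a difference of 0.083 (SE 0.30). Lrp5 lay between 5.29 and 5.57 on all 6 arrays, with a difference of 0.088 (SE 0.16). It was close to background, with raw signals of 100.6 to 105.9, so its narrow range says little about expression. Its 3 other probes were below background on every array.

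Lgr5, a receptor for R-spondins and a WNT target that marks epithelial stem cells in several organs, had the widest range of the 21 genes. It was at 9.25, 7.11 and 4.98 on Control arrays A to C, below background on C, and at 7.99, 10.86 and 7.86 in CKO D, E and F. The groups overlapped, as Control A was higher than CKO D and CKO F. The difference was 1.79 (SE 1.23, 95% confidence interval -1.16 to 4.74, adjusted p 0.976 by limma). It was 0.81 without E, 2.85 without A and 0.72 without C, so single arrays moved it by over 1.5 times.

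Of 8 secreted inhibitors 3 were tested, and all 3 had a difference above 0 that did not pass. Sfrp1, which binds WNT ligands outside the cell, was at 6.88, 6.24 and 4.76 in Control A, B and C and at 5.94, 8.59 and 4.78 in CKO D, E and F. It was below background on C and F, and E lay 3.26-fold above the next array. The difference was 0.47 (SE 1.01), -0.60 without E and -0.87 with array weights. The dimmer Sfrp1 probe was likewise highest on E (7.05), next on A (6.64) and below background on C (4.94).

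Dkk3, a divergent member of the Dickkopf family, was at 8.29, 9.13 and 6.56 in Control A, B and C and at 8.71, 9.51 and 8.12 in CKO D, E and F. Control C was again the lowest array. The difference was 0.79 (SE 0.68), 0.074 without C and -0.35 with array weights. A dimmer Dkk3 probe gave 0.84 (SE 0.71). Wif1, which binds WNT ligands, was at 4.90, 4.84 and 5.25 in Control and at 5.39, 4.62 and 5.32 in CKO D, E and F, above background on C, D and F. Its difference was 0.11 (SE 0.26), so the groups were close to each other and to background.

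Inside the cell, Axin1 and Apc are scaffolds of the complex that marks beta-catenin for breakdown, and Dvl1 carries the signal from Frizzled. The brighter Axin1 probe was at 10.11, 9.91 and 9.98 in Control A, B and C and at 10.23, 9.78 and 9.86 in CKO D, E and F, a difference of -0.047 (SE 0.19). The dimmer Axin1 probe, above background on all arrays, was at 5.22, 5.33 and 5.44 in Control and at 5.58, 5.54 and 5.72 in CKO. Its difference was 0.28 (SE 0.086 in the fit of all probes, where the SE of the brighter probe was 0.14). The probes of Axin1 thus differed in sign, and only the dimmer had groups that did not overlap after normalisation. Among all genes tested, by the probe that stands for each, 5.64% lay wholly higher in CKO. The dimmer Axin1 probe was close to background. Its raw signals were 102, 107 and 102.3 in Control and 102.5, 108.7 and 107.7 in CKO, and these overlapped.

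The brighter Dvl1 probe was at 8.59, 8.54 and 8.26 in Control A, B and C and at 8.77, 9.06 and 8.54 in CKO D, E and F, a difference of 0.33 (SE 0.20, adjusted p 0.976 by limma). CKO F lay within the Control range. The dimmer Dvl1 probe was at 5.34, 5.14 and 5.39 in Control and at 4.88, 5.79 and 4.86 in CKO, below background on D and F, and differed by -0.11 (SE 0.27). Apc lay between 6.64 and 7.72, with a difference of 0.018 (SE 0.34) that was -0.063 with median scaling and -0.0031 with cyclic loess. Only 1 of 4 Apc probes was above background.

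Of the nuclear factors, Tcf7l2 was the one tested. It was at 7.74, 7.70 and 8.42 in Control A, B and C and at 8.21, 6.84 and 7.83 in CKO D, E and F. Array E was the low one, and the difference was -0.32 (SE 0.39), 0.071 without E. The other 4 Tcf7l2 probes were above background on 0 to 2 arrays.

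Axin2, a feedback inhibitor and the most used target gene of beta-catenin signalling, was at 7.23, 7.21 and 6.98 in Control A, B and C and at 7.29, 7.10 and 6.53 in CKO D, E and F. The groups overlapped, with CKO holding the highest and the lowest array. The difference was -0.16 (SE 0.24, 95% confidence interval -0.73 to 0.40, adjusted p 0.977 by limma), and 0.057 without F. On arrays C and E, the lowest and highest for Lgr5, Axin2 was at 6.98 and 7.10.

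The members differed more between arrays of a group than genes in general. The median within-group SD was 0.49 log2 units over the 21 members and 0.30 over all genes tested. It was above 1 for 4 members (Wnt7b, Lgr5, Sfrp1 and Dkk3), 19.0%, and for 4.0% of all genes. The size of the group difference exceeded the within-group SD for 3 members (Wnt5a, Porcn and Dvl1), 14.3%, and for 28.4% of all genes.

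On array E, 9 of the 21 members lay over 2-fold from the mean of the other arrays and outside all of them, where 12.2% of all genes did. Wnt7b, Lgr5, Sfrp1, Dkk3 and Fzd3 were above, by 3.76, 3.42, 2.87, 1.35 and 1.33 log2 units (5.74% of all genes were above), and Porcn, Fzd6, Fzd10 and Tcf7l2 were below (6.42% of all genes). On Control array C, 7 of 21 did, where 7.04% of all genes did. Of these Porcn was above, and Wnt7a, Fzd3, Fzd5, Lgr5, Sfrp1 and Dkk3 were below. On A, B and D, 0 members did, where 1.81%, 0.896% and 5.20% of all genes did, and on F 1 did, Wnt7b, where 1.98% of all genes did. The shares of members were thus 42.9% on E and 33.3% on C, above those of all genes, while on A, B, D and F the counts were near the background. Whether 21 genes picked at random would depart as often on E and C was not tested. The next array after E was A for Wnt7a, Wnt7b, Lgr5, Sfrp1 and Fzd3, an order that 8.06% of all genes tested shared. This order was noticed after the values were seen, and array E is 1 sample.

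**Figure D4:**
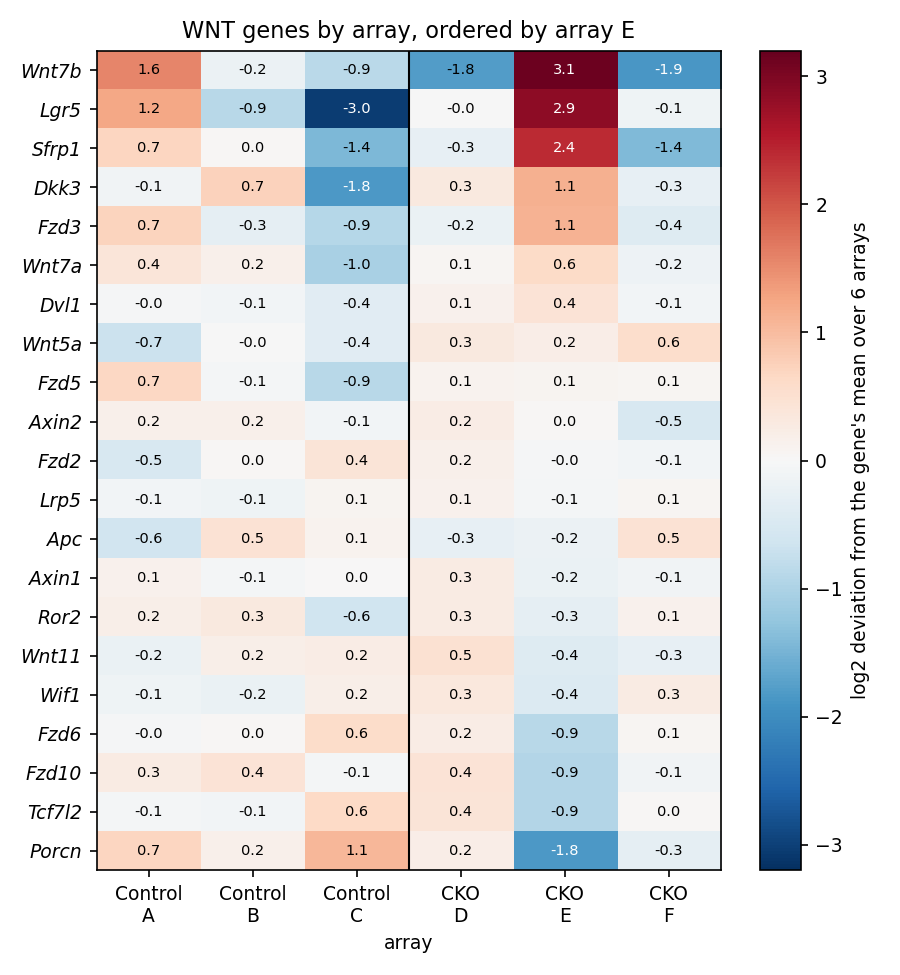
Log2 deviation from each gene's mean over the 6 arrays (colour and printed values) for the 21 WNT genes, ordered by how far array E lay from the others; Control arrays are left of the line and CKO arrays right of it. Array E holds the highest values for Wnt7b, Lgr5 and Sfrp1 and the lowest for Porcn, while Control C is low for Lgr5, Dkk3 and Sfrp1.

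Some markers of other cell types were also high on array E. Of 7 glandular epithelium markers 4 were tested, and their summed level was 1728 on E against 206 to 682 on the others. Foxa2, which marks the glands, was above background on 2 arrays and not tested. Most of the sum on E came from Prss29, above background on 3 arrays. It was at 10.53 on E and 8.27 on A, with 4.53 to 5.23 on the other 4 arrays. Cxcl15 (6.90) and Lif (5.33) on E lay inside the range of the others, and Ttr (6.52) was highest on E. Of 6 endothelium markers 5 were tested, with a summed level of 620 on E against 145 to 297 on the others. Tek (8.23), Emcn (7.03) and Cdh5 (6.75) were highest on E, while Kdr (5.49) and Cldn5 (5.23) on E lay inside the range of the others and were highest on D. Smooth muscle markers (3 of 7 tested, with Myh11, Tagln and Cnn1 below background on every array) summed to 2111 on Control A and 929 on E, against 192 to 599 on the others. Most of this sum came from Acta2, at 10.98 on A, 9.61 on E and 6.86 to 8.86 on the others. Des (5.58) and Smtn (5.38) on A lay inside the range of the others. Des was highest on E (6.04), and Smtn was at 6.36 on D and on E. Macrophage and dendritic cell markers (3 of 6 tested) summed to 277 to 495 in Control and 214 to 551 in CKO, while lymphocyte markers gave 0 of 5 tested and embryo markers 2 of 6. The part of these cell types in the levels of Lgr5, Wnt7b and Sfrp1 was not tested.

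For 11 members a second probe was above background on at least 3 arrays, which is a check on the probe but not on the sample. The brighter and dimmer probes had a difference of the same sign for 8 of the 11 and of opposite sign for Wnt7b, Axin1 and Dvl1. For 9 of the 11 both probes had the same highest array, among them Wnt7b, Sfrp1 and Fzd3. Both probes were above background on all arrays for 8 genes, and for 6 of these they had the same lowest array (Wnt5a, Porcn, Fzd3, Fzd5, Fzd6 and Dkk3).

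**Figure D5:**
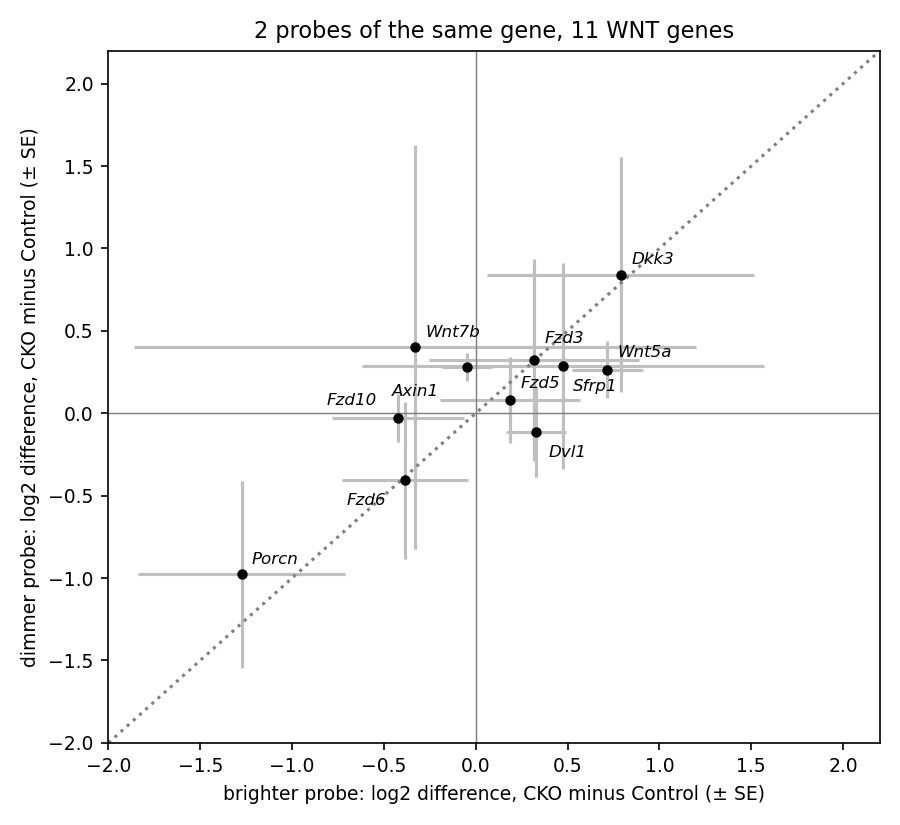
Log2 difference, CKO minus Control, of the brighter probe (horizontal axis) and of the dimmer probe (vertical axis) of 11 WNT genes, with SE bars from a fit of all probes; the dotted line marks equal values. Porcn and Dkk3 lie near the line, Wnt5a lies below it (0.72 and 0.26), and Wnt7b, Axin1 and Dvl1 have probes of opposite sign.

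Of 76 further WNT pathway genes that were listed for this comparison, 42 were tested and 0 passed in either direction. By limma 1 had an unadjusted p under 0.05, where 4.71% of all genes tested did. The difference was above 0 for 23 and below 0 for 19, with a median of 0.041. The groups did not overlap for 0 of the 42 that were higher and 2 that were lower, Camk2d and Tnfrsf19. Over all genes tested, 5.64% lay wholly higher and 5.01% wholly lower. Tnfrsf19, a receptor known as a WNT target, was at 9.47, 9.49 and 9.87 in Control A, B and C and at 9.10, 6.68 and 8.76 in CKO D, E and F, lowest on E. Camk2d, a calcium-dependent kinase, differed by -0.73 (SE 0.22) and was above background on 1 CKO array.

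Beta-catenin itself (Ctnnb1) was at 12.16, 12.11 and 11.95 in Control A, B and C and at 12.32, 12.10 and 12.20 in CKO D, E and F, a difference of 0.13 (SE 0.16). The kinase Gsk3b, which marks beta-catenin for breakdown, differed by 0.16 (SE 0.29), and Wls, the carrier that brings WNT ligands to the cell surface, by -0.046 (SE 0.31). Wls was highest on E, at 11.12. Ryk, a WNT receptor, differed by 0.030 (SE 0.21) and Vangl2, a core protein of planar cell polarity, by -0.075 (SE 0.19).

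Kremen1, a receptor for Dickkopf proteins, was at 9.18 on E and between 7.06 and 7.90 elsewhere, with a difference of 0.39 (SE 0.50). Rnf43, a ligase related to Znrf3, differed by -0.16 (SE 0.28) and was above background on 3 arrays, and Ccnd1, a cyclin often listed as a WNT target, by -0.46 (SE 0.51). Frzb and the target Myc were not tested, as they were above background on 0 and 1 arrays. The ligands Wnt1, Wnt2, Wnt2b, Wnt3, Wnt3a, Wnt8a, Wnt8b, Wnt9a, Wnt9b, Wnt10a and Wnt10b were below background on every array.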

How the data were processed

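Per the file headers, each array's deposited scanner table holds for every probe its intensity (linear, the mean over beads), the detection p-value and how many beads were read. These intensities were not background-subtracted or normalised. The authors' second deposited table holds processed intensity values with equal medians (6.4) on all 6 arrays and values below 0, so background had been subtracted, and the sources used here do not name the software. Another 18 columns of per-array values were left unused.

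The neqc function of limma 3.58.1 (R 4.3.3) took negative controls from the detection p-values, applied normexp and quantile normalisation with an offset of 16, and returned log2 values. The offset makes differences of dim genes smaller. Probes with a detection p-value under 0.05 on at least 3 of 6 arrays (17291) were kept, and the probe with the highest mean stood for its gene. WNT genes were taken by the symbol in the scanner tables. Other probes were named through a RefSeq table of GRCm38.p6 (29370 by accession, 3686 by symbol, 3267 by synonym, 8958 with the file's name kept). CKO was set against Control with lmFit and eBayes, and p-values of the 11941 genes were adjusted together by the Benjamini-Hochberg method, with calls at 0.05. The arrays share 1 chip, so no batch term was used. The fit was tested on simulated data. For the alternative with the authors' processed values, negative values were set to 0 and 16 was added before log2. The other alternatives changed the background correction, the normalisation, the filter, the probe that stands for a gene, the variance model or the arrays included.

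All 41 genes are named. By rule, values in every sample are given for tested members whose groups were apart or whose probes had opposite signs, and for Wnt4, Wnt5a, Wnt7a, Wnt11, Fzd6, Lgr5, Sfrp1, Sfrp4, Dkk1, Wif1, Lef1 and Axin2. The rule also names Ctnnb1, Gsk3b, Wls, Frzb, Rnf43, Kremen1, Ryk, Vangl2, Ccnd1, Myc, Foxa2 and Bmpr1a. The members and lists were chosen with earlier results of these data known. The promoters, Camk2d, Tnfrsf19 and the cell type markers given with values, Prss29 and Cxcl15 among them, were picked with their values in view. So were the remaining values in every sample (Porcn, Fzd5, Ror2, Dkk3, Tcf7l2). Of the luminal epithelium markers, 1 and the sum over the list are not reported here.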

Additional observations from a re-analysis of the deposited data

How the results depend on the processing

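The comparison was refitted under 10 processing alternatives and 6 that leave out 1 array each. In all settings run on them 8 of the 21 members kept their sign (Wnt5a, Porcn, Fzd6, Fzd10, Lrp5, Lgr5, Wif1 and Dvl1), 13 changed sign in some setting, and 0 members were called in any. Wnt5a had its lowest adjusted p with array weights, 0.283 (limma). Genes called higher numbered 2, and 1 with median scaling, cyclic loess, the authors' deposited values, normexp without controls or no background correction, 0 with no filter and with the strict filter, 5 with array weights, and 0 to 1 without single arrays. Members above 0 numbered 13, and 25 of 41 with no filter, 7 with array weights and 7 (without C) to 14 (without E) without single arrays. With array weights the sign turned for Wnt7a (-0.11), Fzd2 (-0.059), Fzd3 (-0.026), Ror2 (-0.052), Sfrp1 (-0.87), Dkk3 (-0.35), Gsk3b (-0.19), Kremen1 (-0.31) and Ryk (-0.026). With the mean of probes it turned for Wnt7b (0.034), Axin1 (0.12) and Wls (0.13), with median scaling, which moved the median of all genes to -0.077, for Fzd2 (-0.014), Apc (-0.063) and Ryk (-0.053), and with cyclic loess for Apc (-0.0031). Without single arrays the difference ran from -0.11 to 0.60 for Wnt7a, -2.0 to 0.51 for Wnt7b, -0.42 to 0.042 for Wnt11, -0.21 to 0.25 for Fzd2, -0.16 to 0.75 for Fzd3, -0.20 to 0.56 for Fzd5, -0.21 to 0.26 for Ror2, -0.60 to 1.31 for Sfrp1, -0.18 to 0.042 for Axin1, -0.28 to 0.25 for Apc, -0.61 to 0.071 for Tcf7l2, -0.32 to 0.057 for Axin2, -0.087 to 0.31 for Gsk3b, -0.39 to 0.13 for Wls, -0.18 to 0.88 for Kremen1, -0.11 to 0.14 for Ryk and -0.17 to 0.051 for Vangl2. The no-filter count covers more genes, and for the rest the cause was not tested. Signal over background limits the dim genes, Lrp5, Wif1, Sfrp1 on C and F and Lgr5 on C, and the dimmer Axin1 probe. No paired analysis was possible because the labels give no pairing.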
